A study of Anas platyrhynchos with 6 samples.

Results

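GEM and RASD1 encode small GTP-binding proteins of the RAS superfamily, and their transcripts are described here in 6 duck ovaries. They are 2 of the 17169 transcripts measured. They were chosen by symbol, with their levels in these libraries already known, because of how those levels differ among the ovaries, so their own levels are given as a description with no test. Each symbol stood on 1 row. RNA was sequenced from ovarian tissue of ducks (Anas platyrhynchos) aged 71 weeks from a full-sib family, killed after feed had been withheld. The labels put 3 ducks in a group of high egg number (HEN) and 3 in a group of low egg number (LEN), with no treatment, strain or allele given for either, and each duck gave 1 library. Levels are FPKM, fragments scaled to transcript length and library size, so that levels of different genes can be set side by side per length. The tissue is a mixture of cells, and a larger share of the cells that hold a transcript cannot be told apart from more of that transcript per cell.

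GEM belongs to the RGK family, small GTPases that lack the lipid anchor of classical RAS proteins. In mammalian cells GEM was found as a gene switched on by mitogens in T cells. Its protein binds the beta subunits of voltage-gated calcium channels and lowers calcium entry, and it restrains the kinases that drive contraction of the actin cytoskeleton. RASD1 was found in mouse pituitary cells as a transcript induced by the glucocorticoid dexamethasone. Its protein activates inhibitory G proteins without a receptor, restrains adenylyl cyclase, and in rat brain binds neuronal nitric oxide synthase through the adaptor NOS1AP. Both are known as genes whose transcripts rise quickly after a stimulus.

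The ovaries were not alike within the HEN group. Across the 13328 transcripts that averaged 1 FPKM or more, HEN replicates 2 and 3 correlated at 0.965 with each other and at 0.634 to 0.779 with every other ovary, while the r of HEN replicate 1 with LEN ovaries was 0.933 to 0.964 (Pearson's r of log2(FPKM + 1) across genes, which are not independent replicates). Most oocyte and germ cell markers differed in the same way, 6 averaging lower in HEN and 1 higher. Of 7 measured markers of 15 listed, the sum came to 497 FPKM in HEN replicate 1, 9.57 and 8.66 FPKM in replicates 2 and 3 of that group, and 529 to 1316 FPKM in LEN. DDX4 and DAZL, germ cell RNA-binding proteins, were listed at 0 FPKM in HEN replicate 2. Results are therefore given by ovary, and group differences also without these libraries. Library totals inferred from the table were 18213744 to 19831761 fragments.

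GEM (ENSAPLG00000014490, scaffold KB745269.1 from 161461 to 167595, plus strand, in the coordinates of the deposited table) had levels of 57.0, 143 and 103 FPKM in the HEN ovaries, in the order of replicates 1 to 3, and of 23.9, 27.6 and 17.3 FPKM in the LEN ovaries in the same order. Every HEN ovary lay above every LEN ovary. The lowest HEN level was 2.07 times the highest LEN level. HEN averaged 101 ± 43.0 FPKM and LEN 22.9 ± 5.19 FPKM (SD, 3 ovaries each), a difference of 2.02 on the log2(FPKM + 1) scale. The SD on that scale was 0.66 in HEN and 0.33 in LEN. HEN replicate 1, the HEN ovary that resembled LEN across genes, was 1.30 above the LEN mean on the log2 scale. There 0.675% of the transcripts tested had a larger difference. That share is no test, since GEM was chosen for how its level differed among these ovaries. HEN replicates 2 and 3 were 2.61 and 2.14 above the LEN mean.

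RASD1 (ENSAPLG00000008707, scaffold KB742528.1 from 130478 to 131640, plus strand) had levels of 7.17, 135 and 224 FPKM in the HEN ovaries and of 10.7, 6.15 and 5.04 FPKM in the LEN ovaries, in the same order of replicates. HEN replicates 2 and 3 stood far above the other 4 ovaries, and HEN replicate 1 lay inside the LEN range. The mean of HEN replicates 2 and 3 was 24.5 times the LEN mean, whereas HEN replicate 1 was at 0.981 of it. HEN averaged 122 ± 109 FPKM and LEN 7.31 ± 3.03 FPKM (SD, 3 ovaries each), a difference of 2.98 on the log2(FPKM + 1) scale. The SD on that scale was 2.58 in HEN, and 1.35% of the transcripts tested varied more within HEN. That share is no test either, since RASD1 was chosen in the same way. Without HEN replicate 1 the difference was 4.45, and without HEN replicates 2 and 3 it was 0.036. For GEM the same differences were 2.38 and 1.30.

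**Figure D1:**
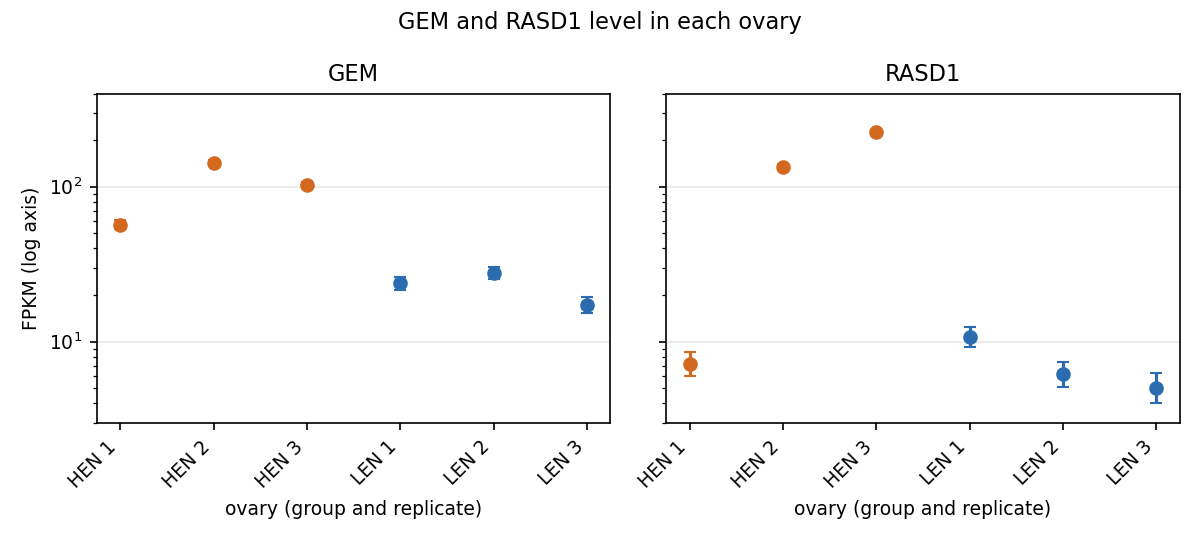
Level of GEM and RASD1 in each of the 6 ovaries in FPKM on a log axis; bars are 95% exact Poisson intervals of the fragments, which cover counting error only; bars of the high libraries are hidden by the points. The 3 HEN points of GEM all lie above its LEN points, whereas RASD1 is high in HEN replicates 2 and 3 (135 and 224 FPKM) and low in the other 4.

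The order of the levels and the counts behind them could be read from the table. The smallest length that gave whole fragments in all 6 libraries was 894 bases for GEM, although multiples of it gave whole fragments too, and 910 bases for RASD1, the only such length within its annotated span. With these lengths GEM rested on 968, 2397 and 1677 fragments in HEN replicates 1, 2 and 3 and on 410, 489 and 284 in LEN replicates 1, 2 and 3. RASD1 rested on 124, 2297 and 3717 fragments in HEN and on 188, 111 and 84 in LEN. From low to high, GEM ran from LEN replicate 3 (95% exact Poisson interval 15.4 to 19.5 FPKM) through LEN replicate 1 (21.6 to 26.3 FPKM) and LEN replicate 2 (25.2 to 30.1 FPKM) to HEN replicates 1, 3 and 2. LEN replicates 1 and 2 were neighbours whose intervals overlapped, and no other GEM neighbours did so. For RASD1 the lowest 3 ovaries were LEN replicate 3 (4.02 to 6.23 FPKM), LEN replicate 2 (5.06 to 7.41 FPKM) and HEN replicate 1 (5.97 to 8.55 FPKM), each overlapping the next. LEN replicate 1 (9.26 to 12.4 FPKM) came above these, and HEN replicates 2 and 3 came last. These intervals leave out differences between ducks, of which each group has 3.

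The 2 genes did not keep a fixed proportion. Per length, GEM exceeded RASD1 by 7.95 times in HEN replicate 1 and by 2.22, 4.48 and 3.44 times in LEN replicates 1, 2 and 3. In HEN replicate 2 the levels were close, at a ratio of 1.06, and in HEN replicate 3 the ratio was 0.459, so that RASD1 was the higher of the pair. Among all transcripts tested, GEM stood above 87.9%, 96.9% and 95.8% in HEN replicates 1, 2 and 3 and above 64.7%, 69.9% and 54.9% in LEN replicates 1, 2 and 3. RASD1 stood above 28.5% in HEN replicate 1, 96.8% in replicate 2 and 98.4% in replicate 3, whereas its LEN places lay above 22.1% to 39.0%.

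Scaling the libraries otherwise did not move an ovary of either gene across the other group. The lowest HEN level of GEM stayed above the highest LEN level in values as deposited (5.86 against 4.84 on the log2 scale), as TPM, after scaling to the upper quartile (5.73 against 4.76) or by trimmed means (5.73 against 4.72), and after quantile normalization (5.78 against 4.73). For RASD1, HEN replicate 1 lay below LEN replicate 1 in all 5.

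The nearest annotated neighbours on each side had other profiles, and genes further away are not described here. The nearest transcripts on the scaffold of GEM were RAD54B, a DNA repair gene that ends 32496 bases before it, and CDH17, a cadherin gene that starts 27915 bases after it. RAD54B was at 5.38, 2.51 and 2.69 FPKM in HEN, against 7.24, 7.33 and 6.21 in LEN, and CDH17 was below 1 FPKM in all 6 ovaries, with 0.507 FPKM as its highest level. RASD1 lies between PEMT, the phosphatidylethanolamine methyltransferase gene that ends 9246 bases before it, and MED9, a Mediator subunit gene that starts 3359 bases after it. PEMT was at 53.9, 25.2 and 24.5 FPKM in HEN, against 48.9, 33.4 and 62.5 in LEN, and MED9 was at 32.4, 30.3 and 27.5 FPKM in HEN, against 27.1, 22.2 and 42.2 in LEN. No position of another gene in the table overlapped GEM or RASD1.

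Among small GTPases of the RAS branch, GEM and RASD1 held different places from ovary to ovary. With the 25 tested genes of both GTPase lists, 27 were ranked by FPKM in each ovary. RALB, a regulator of exocytosis, was first in HEN replicate 1 and in all 3 LEN ovaries, at 177 to 222 FPKM. GEM was 7th in HEN replicate 1, first in HEN replicate 2 and 3rd in HEN replicate 3, against ranks of 16, 14 and 19 in LEN. RASD1 was 2nd and first in HEN replicates 2 and 3 and held rank 21 or 23 in the other ovaries.

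**Figure D2:**
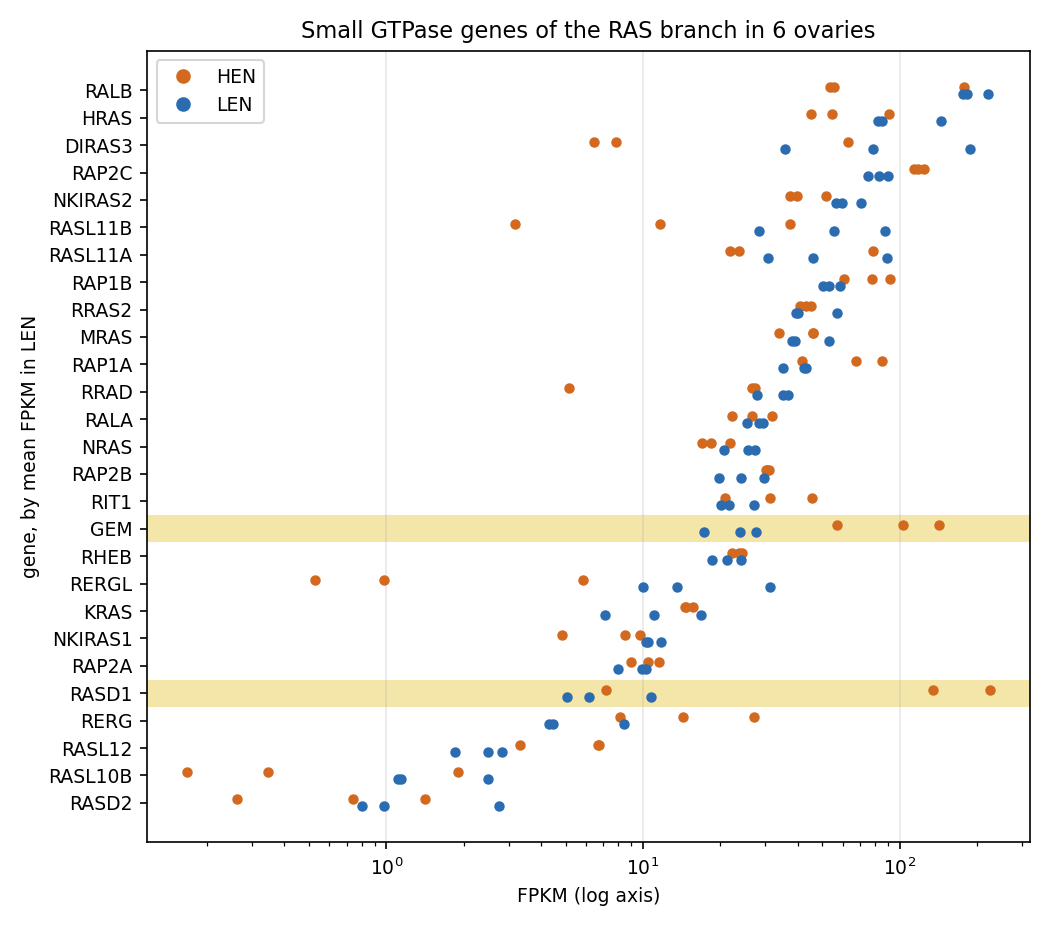
FPKM on a log axis of 27 small GTPase genes in each ovary, ordered by their mean in LEN, with GEM and RASD1 shaded. The GEM points of the groups do not overlap, and RASD1 has 2 HEN points at 135 and 224 FPKM and 1 among the LEN points.

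For the genes around GEM and RASD1, HEN and LEN were compared with limma over all transcripts tested. None of 13328 passed at a Benjamini-Hochberg adjusted p under 0.05 (0%), and 2929 had an unadjusted p under 0.05, which was 5.1% higher and 16.9% lower in HEN. The smallest adjusted p of any gene in the lists below was 0.226, so that no member of them rose or fell by that test. Levels of HEN and LEN did not overlap for 6.92% of transcripts with HEN above LEN and for 13.4% with HEN below. GEM is 1 of the former and RASD1 is in neither group, a count fixed by how they were chosen. The median difference over all transcripts was -0.24 as deposited, 0.014 after scaling to the upper quartile, and 37.1% of transcripts had a higher mean in HEN. Leaving out HEN replicate 1, which resembled LEN across genes, sets only HEN replicates 2 and 3 against LEN, here and in the lists below. That ovary was singled out from these same values. Calls made without it therefore describe the split among the ovaries and are no test of HEN against LEN. Without that ovary, limma called 6501 transcripts, 11.8% of those tested as higher and 37% as lower. Without HEN replicates 2 and 3 it called 1 transcript (0.0075%), with the lone HEN library assumed to vary like LEN.

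The nearest relatives of GEM and RASD1 had other profiles. RRAD, the one other RGK gene with a row in the table, was at 27.4, 26.7 and 5.15 FPKM in HEN, against 27.8, 35.1 and 36.6 in LEN. All its HEN levels lay below the LEN levels, opposite to GEM, by a narrow gap in HEN replicate 1. RASD2, the paralogue of RASD1 known from the striatum of rodents, was at 0.261, 0.741 and 1.42 FPKM in HEN, against 2.74, 0.801 and 0.975 in LEN and was low in all 6 ovaries. Of 11 tested relatives with 16 listed, 2 averaged higher in HEN and 9 lower, with a median difference of -0.53, or -0.28 after scaling to the upper quartile. Without HEN replicate 1, 2 were called higher and 6 lower, against 11.8% and 37% of all transcripts tested. RERGL, a RAS-like gene, had the smallest p of the list and differed by -2.65 ± 0.66 (SE), at 5.85, 0.529 and 0.980 FPKM in HEN, against 10.01, 13.5 and 31.3 in LEN. RERG, an inhibitor of growth first seen as an oestrogen-regulated gene, differed by 1.28 ± 0.47 (SE) and RASL12 by 0.92 ± 0.34 (SE). DIRAS3, named through its Entrez identifier, was among the most abundant of the list and differed by -2.34 ± 0.93 (SE). NKIRAS2, an inhibitor of NF-kappa-B signalling, was at 37.5 to 51.8 FPKM in HEN and 56.3 to 70.7 FPKM in LEN.

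Of 14 tested classical RAS, RAP and RAL genes, 8 averaged higher in HEN and 6 lower and the median difference was 0.13, or 0.40 after scaling to the upper quartile. The groups did not overlap for 3 of them, all higher in HEN, against 6.92% of all transcripts tested. Without HEN replicate 1 limma called 3 higher and 2 lower, against 11.8% and 37% of all transcripts. RAP2C was at 124, 118 and 114 FPKM in HEN, against 83.3, 89.8 and 75.1 in LEN, and RAP1B, a regulator of integrin adhesion, at 60.6, 91.6 and 78.1 FPKM in HEN, against 50.3, 58.5 and 52.9 in LEN. RALB was at 178, 53.4 and 55.3 FPKM in HEN, against 177, 184 and 222 in LEN. Like many transcripts, it was low in HEN replicates 2 and 3, in which RASD1 was high.

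Calcium channels are the best known targets of GEM. Of 18 listed subunits, 11 had a row and 9 were tested, at low levels. Of the beta subunit genes, CACNB1 and CACNB3 had no row. CACNB2, a binding partner of RGK proteins with more RNA than CACNB4, was at 11.2, 13.3 and 12.1 FPKM in HEN. In LEN it was at 8.41, 11.3 and 4.98 FPKM, and the groups overlapped by a small margin. The other beta subunit tested, CACNB4, was at 1.26 to 2.86 FPKM in HEN and 2.32 to 3.33 FPKM in LEN. GEM exceeded CACNB2 in every ovary. CACNA2D1, an accessory subunit, was at 8.86, 9.34 and 15.4 FPKM in HEN, against 8.11, 7.90 and 3.45 in LEN. The pore subunits CACNA1B, CACNA1D and CACNA1I had the smallest p of the list and were all lower on average in HEN. CACNA1B was at 2.20, 0.134 and 0.024 FPKM in HEN, against 4.32, 2.42 and 5.63 in LEN. CACNA1D and CACNA1I were at or below 0.203 FPKM in HEN replicates 2 and 3 and at 1.18 to 3.32 FPKM in LEN. In HEN replicate 1 they were at 1.53 and 2.38 FPKM, each within its LEN range. The list had 3 higher and 6 lower means and a median of -0.76 (-0.60 after scaling to the upper quartile and -0.14 after quantile normalization). Without HEN replicate 1 limma called 0 higher and 5 lower, against 11.8% and 37% of all transcripts tested.

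The cytoskeletal genes and other binding partners of GEM were split. Of 20 tested, 10 averaged higher in HEN and 10 lower (median difference -0.086, or 0.20 after scaling to the upper quartile). Without HEN replicate 1 limma called 5 higher and 7 lower, against 11.8% and 37% of all transcripts tested. ROCK1 and ROCK2, the contractile kinases restrained by RGK proteins, differed by 0.74 ± 0.30 and 1.22 ± 0.46 (SE). ROCK1 was at 37.6, 57.9 and 57.9 FPKM in HEN, against 33.2, 37.1 and 21.2 in LEN. RHOA, their activator and the most abundant gene of the list, was at 271, 616 and 473 FPKM in HEN, against 211, 255 and 275 in LEN. GMIP, a GTPase activating protein for RHOA that binds GEM, was at 4.23, 7.04 and 10.9 FPKM in HEN, against 3.66, 4.50 and 3.44 in LEN. EZR, the membrane linker ezrin and another GEM partner, was lower in all HEN ovaries, at 82.1, 48.3 and 30.9 FPKM against 96.1, 107 and 92.5 FPKM in LEN. RND1, another small GTPase gene of the list, was at 44.4, 2.80 and 2.45 FPKM in HEN, against 55.1, 25.9 and 82.9 in LEN. The 14-3-3 protein gene YWHAE differed by -0.18 ± 0.20 (SE), and by 0.10 after scaling to the upper quartile.

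The partners of RASD1 ranged from scarce to abundant transcripts. NOS1, the neuronal nitric oxide synthase, was at 4.13, 0.099 and 0.115 FPKM in HEN, against 4.77, 2.09 and 6.37 in LEN. NOS1AP, the adaptor that joins it to RASD1, was at 28.6, 12.1 and 12.7 FPKM in HEN, against 28.2, 24.6 and 31.7 in LEN. Both were thus lowest in HEN replicates 2 and 3, the ovaries with most RASD1. Many transcripts shared that split, and without HEN replicate 1 limma called 37% of all those tested lower. GNAI1, an inhibitory G protein subunit of the kind RASD1 activates, was at 19.5, 33.5 and 33.9 FPKM in HEN, against 16.8, 18.9 and 10.7 in LEN. GNAI2, at 75.2 to 153 FPKM, and GNAI3, at 80.7 to 121 FPKM, differed by 0.54 ± 0.24 and 0.16 ± 0.22 (SE), and GNB1, a beta subunit, by 0.58 ± 0.24 (SE). ADCY2, an adenylyl cyclase, was at 3.26, 7.77 and 7.55 FPKM in HEN, against 0.953, 3.26 and 1.54 in LEN, and HEN replicate 1 and LEN replicate 2 were nearly equal. Of 20 tested, 9 averaged higher in HEN and 11 lower (median difference -0.017, or 0.26 after scaling to the upper quartile). Without HEN replicate 1 limma called 5 higher and 3 lower, against 11.8% and 37% of all transcripts tested.

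Genes of cAMP signalling had more higher than lower means. Of 17 tested, 13 were higher and 4 lower on average in HEN, with a median difference of 0.38, or 0.65 after scaling to the upper quartile. Without HEN replicate 1 limma called 6 higher and 1 lower, against 11.8% and 37% of all transcripts tested. PDE4B, a cAMP phosphodiesterase that is itself induced by cAMP, was at 5.40, 31.6 and 20.6 FPKM in HEN, against 3.57, 4.60 and 3.84 in LEN. PRKAR2B, a regulatory subunit of protein kinase A, was at 8.81, 79.7 and 44.2 FPKM in HEN, against 6.98, 14.5 and 3.56 in LEN. These 2 genes were, like RASD1, highest in HEN replicates 2 and 3. So were most others tested in the list, among them CREB1, ATF1 and PRKAR1A. PRKAR2A, PDE3A, PDE7A, PDE7B and RAPGEF4 were not. HEN replicates 2 and 3 stood apart across genes, and the share of all transcripts highest in them was not counted. The order is thus not shown to be particular to this list. CREB1, the transcription factor phosphorylated by that kinase, differed by 0.88 ± 0.35 (SE) and its relative ATF1 by 0.45 ± 0.25 (SE). PRKAR1A, the most abundant of the list, differed by 0.17 ± 0.25 (SE).

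Other inducible genes were split between higher and lower means. Of 19 tested cAMP and calcium inducible genes, 11 averaged higher in HEN and 8 lower (median difference 0.17, or 0.46 after scaling to the upper quartile). The groups did not overlap for 2 higher and 2 lower ones, against 6.92% and 13.4% of all transcripts tested. Without HEN replicate 1 limma called 6 higher and 6 lower, against 11.8% and 37% of all transcripts. FOS, the standard immediate early gene, was at 73.4, 50.6 and 39.0 FPKM in HEN, against 60.7, 40.9 and 52.7 in LEN. JUN was at 213, 342 and 181 FPKM in HEN, against 246, 179 and 208 in LEN. The groups overlapped for both. EGR1 was higher in every HEN ovary, at 49.4, 65.3 and 76.4 FPKM against 47.5, 46.0 and 39.4 FPKM in LEN, and CREM, a cAMP-responsive factor, differed by 0.59 ± 0.23 (SE). NR4A1, the orphan nuclear receptor, was lower in every HEN ovary, at 4.82, 2.53 and 1.06 FPKM against 7.35, 5.14 and 6.48 FPKM in LEN. The growth factors AREG and BDNF did not exceed 1.16 FPKM in HEN replicates 2 and 3, whereas LEN held 23.5 to 86.1 FPKM. In HEN replicate 1 they were at 53.0 and 28.1 FPKM, each within its LEN range. HBEGF differed by -1.24 ± 0.41 (SE). RGS2, an abundant regulator of G protein signalling, was at 72.4 to 142 FPKM in HEN and 104 to 228 FPKM in LEN.

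RASD1 is named for its induction by dexamethasone, and 12 other glucocorticoid genes were tested. They had 6 higher and 6 lower means in HEN and a median difference of -0.054, or 0.20 after scaling to the upper quartile. Without HEN replicate 1 limma called 5 higher and 2 lower, against 11.8% and 37% of all transcripts tested. FKBP5, a chaperone that is a standard marker of glucocorticoid action, was at 47.5, 127 and 159 FPKM in HEN, against 49.4, 86.8 and 61.7 in LEN. TSC22D3, another such marker, was at 258, 374 and 337 FPKM in HEN, against 322, 280 and 353 in LEN. FKBP5 was thus highest in HEN replicates 2 and 3, whereas its level in HEN replicate 1 lay below every LEN ovary. CRISPLD2, CEBPD, SGK1 and GLUL, whose position overlaps another gene, were also highest in HEN replicates 2 and 3. The other tested genes of the list were not. Here too the share of all transcripts highest in these ovaries was not counted. The groups overlapped for both FKBP5 and TSC22D3. CRISPLD2, a secreted protein, differed by 1.29 ± 0.44 (SE) and CEBPD, a transcription factor whose position overlaps another gene, by 1.19 ± 0.45 (SE). NR3C1, the glucocorticoid receptor, was at 16.0, 13.6 and 15.7 FPKM in HEN, against 19.3, 19.1 and 14.2 in LEN. NR3C2, the mineralocorticoid receptor, was at 17.2, 2.27 and 2.68 FPKM in HEN, against 24.9, 16.7 and 27.5 in LEN.

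**Figure D3:**
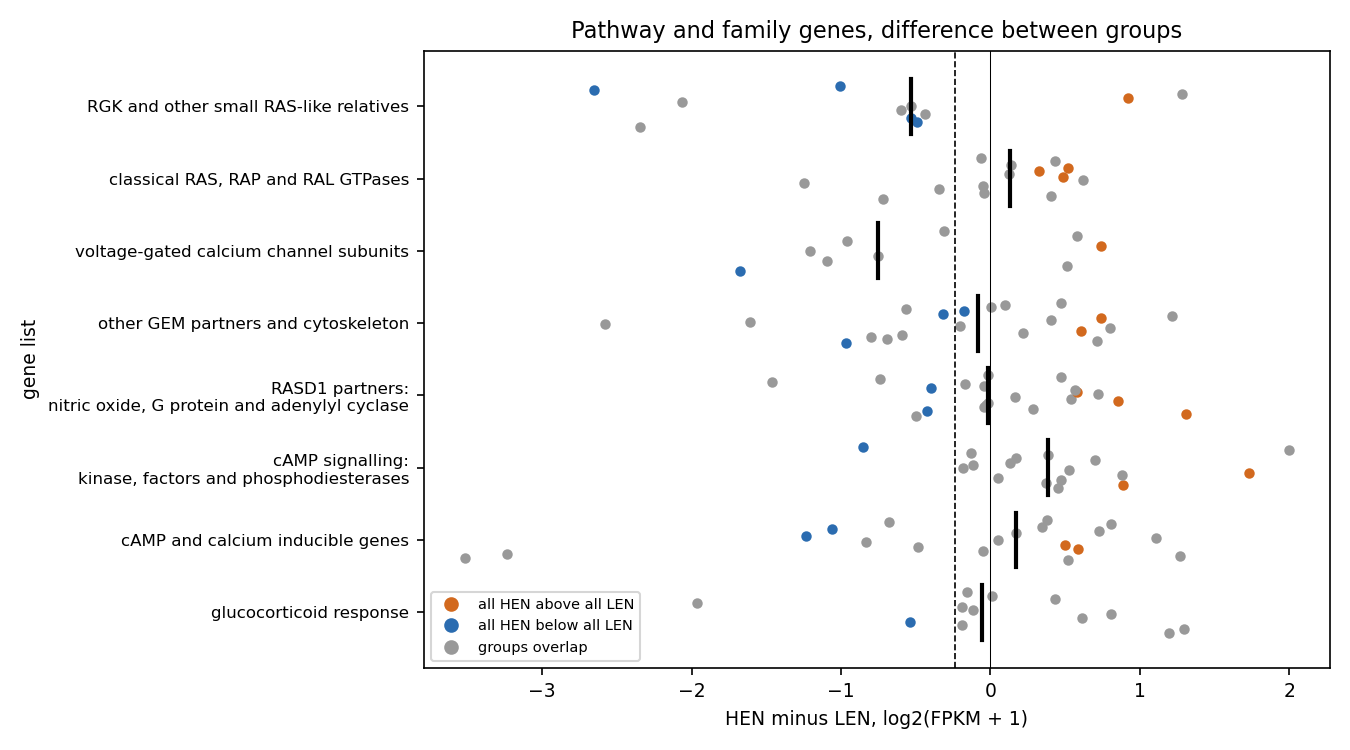
Difference of group means on the log2(FPKM + 1) scale for each tested gene of 8 lists, with the median of each list as a black bar and the median of all 13328 transcripts as a dashed line at -0.24. Coloured points are genes whose groups do not overlap; grey points lie on both sides of 0 in every list.

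Markers of cell types differed among the same ovaries, and their part in the levels of GEM and RASD1 was not tested. Relative to the LEN mean on the log2 scale, the median of the 7 oocyte markers was -0.46 in HEN replicate 1 and -6.14 and -6.07 in HEN replicates 2 and 3. Of these markers, 1 averaged higher in HEN and 6 lower. ZP2, an egg coat protein, was at 219, 0.152 and 1.72 FPKM in HEN and 252 to 704 FPKM in LEN. The median of the 6 genes listed as granulosa markers was -0.11, -1.12 and -1.09, and 2 of them averaged higher in HEN and 4 lower. Whether each is specific to granulosa cells in the duck was not tested, and the list includes steroid synthesis genes. FOXL2, a granulosa transcription factor whose position overlaps 2 other genes, was at 175, 33.1 and 55.2 FPKM in HEN and 152 to 154 FPKM in LEN. NR5A2, a nuclear receptor, was at 1.20, 6.24 and 4.81 FPKM in HEN and 1.09 to 2.35 FPKM in LEN, and FSHR, the receptor of follicle-stimulating hormone, at 13.6 to 22.2 FPKM in HEN and 19.8 to 25.4 FPKM in LEN. INHBA, an activin subunit, was highest in HEN replicate 2, at 8.22 FPKM. STAR, which carries cholesterol into mitochondria for steroid synthesis, ranged from 17.9 to 253 FPKM within LEN. The median of the 9 theca and stroma markers was 0.69, 1.01 and 0.92 in HEN replicates 1, 2 and 3, and that of the 7 smooth muscle markers 0.79, 0.77 and 0.75. These medians lay above every LEN ovary in all 3 HEN ovaries, since LEN reached 0.34 and 0.40 in them. Single markers did so for 6 of the 9 and 5 of the 7, against 6.92% of all transcripts tested. COL3A1, a fibrillar collagen, was at 424, 464 and 586 FPKM in HEN and 59.2 to 197 FPKM in LEN. CYP17A1, the androgen-forming enzyme of the theca, went the other way in HEN replicates 2 and 3, at 240, 0.095 and 0.146 FPKM in HEN and 33.5 to 521 FPKM in LEN. ACTG2 and MYH11, smooth muscle actin and myosin, were at 35.9 and 35.6 FPKM in HEN replicate 2, within or below their LEN ranges. Each LEN ovary is part of the LEN mean, so LEN levels are tied to that mean by construction and HEN levels are not. GEM stood at 1.30, 2.61 and 2.14 on the same scale, above the medians of both lists in every HEN ovary. Single markers could exceed it. In HEN replicate 1, COL3A1, COL1A2 and ACTG2 were at 1.81, 1.48 and 1.98, and the other tested markers of both lists lay below GEM. In summed FPKM the 9 measured theca and stroma markers of 11 listed were at 1514 to 1616 in HEN and 606 to 1340 in LEN. The 7 smooth muscle markers of 11 were at 1396 to 1459 in HEN and 484 to 1017 in LEN.

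The summed leukocyte, endothelial and blood cell markers were highest in HEN replicates 2 and 3, where RASD1 was highest, although single markers were not all so. The median of the 11 measured leukocyte markers of 15 was 0.43, 1.41 and 1.92 above the LEN mean in HEN replicates 1, 2 and 3 and reached 0.61 in LEN. Their summed FPKM was 734, 1096 and 1422 in HEN and 369 to 717 in LEN. CD74, a chaperone of class II histocompatibility molecules whose position overlaps another gene, was at 522, 602 and 724 FPKM in HEN and 246 to 512 FPKM in LEN. CD74 made up the larger share of each sum. Of the 11, 8 averaged higher in HEN and 3 lower. The 3 were CD3E, CD4 and CD79B, lymphocyte markers, of which CD3E, whose position overlaps another gene, was at 2.60, 6.78 and 6.03 FPKM in HEN and 4.04 to 13.7 FPKM in LEN. The median of the 12 endothelial markers of 15 was 0.14, 0.72 and 0.67, 11 averaged higher in HEN and 1 lower, and their summed FPKM was 221, 415 and 399 in HEN and 162 to 280 in LEN. PECAM1 and VWF, proteins of the vessel lining, were at 102 and 108 FPKM in HEN replicate 2. CLDN5, a tight junction protein, was instead highest in LEN replicate 2 at 45.5 FPKM. EGFL7, whose position overlaps another gene, was highest in LEN replicate 3 at 55.0 FPKM. The 4 measured erythrocyte and thrombocyte markers of 11 summed to 39.3, 103 and 515 FPKM in HEN and 39.6 to 95.1 FPKM in LEN, with HBM, a globin gene, at 496 FPKM in HEN replicate 3. RASD1 stood 4.09 and 4.82 above the LEN mean in HEN replicates 2 and 3, more than the median of any of these lists. The 11 measured neuron and glia markers of 12 summed to 667, 54.3 and 52.2 FPKM in HEN and 562 to 1005 FPKM in LEN. NEFL and UCHL1, the most abundant of these, were at 6.77 and 34.9 FPKM in HEN replicate 3 and at 287 and 328 FPKM in HEN replicate 1. SNAP25 and TH were listed at 0 in HEN replicate 2, and TH in HEN replicate 3, but neither exceeded 0.249 FPKM in any ovary. The sum rests mostly on UCHL1, NEFL and NEFM. SYT1, a synaptic vesicle protein, was instead highest in HEN replicates 2 and 3, at 12.7 and 7.49 FPKM against 5.14 to 5.49 FPKM in the other 4 ovaries. STMN2 was highest in HEN replicate 3 at 1.43 FPKM, and DBH in HEN replicate 2 at 4.36 FPKM.

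**Figure D4:**
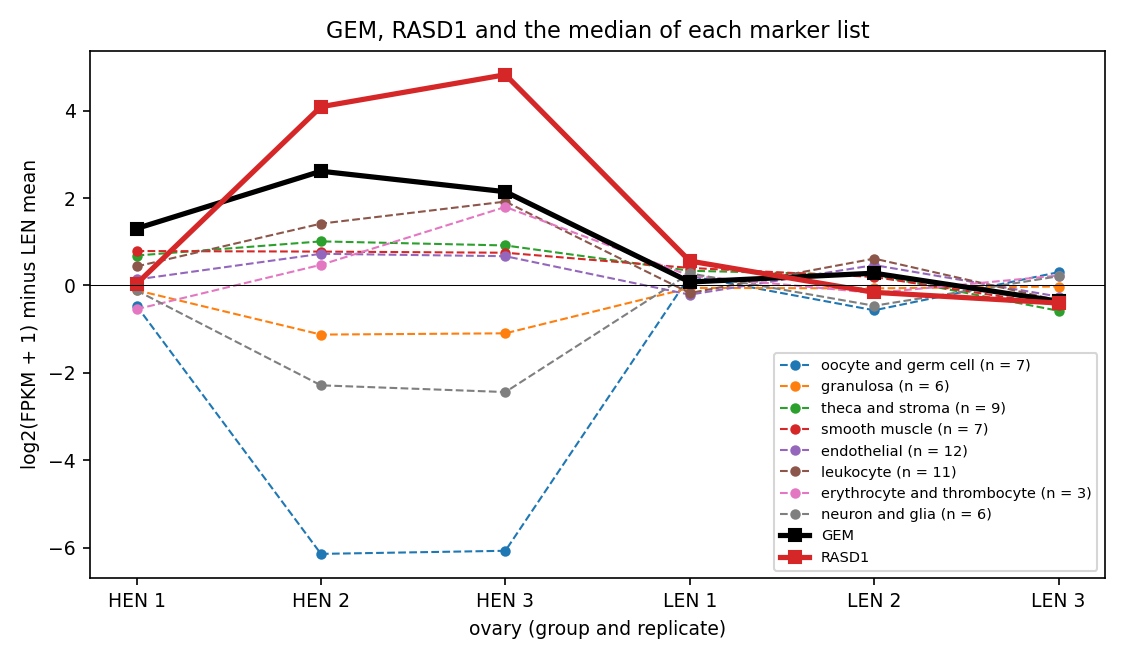
Level of GEM and RASD1 and the median level of each marker list in each ovary, as log2(FPKM + 1) minus the LEN mean; lines only join the points of 1 gene or list. RASD1 is at 0.036 in HEN replicate 1 and at 4.09 and 4.82 in HEN replicates 2 and 3, where the oocyte list is at -6.14 and -6.07.

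The genes with the profiles most like GEM were found by the root mean square distance between log2(FPKM + 1) profiles over the 6 ovaries, each centred on its own mean, among 9489 transcripts with a symbol on 1 row. The nearest was KCNE4, an accessory subunit of potassium channels, at a distance of 0.15. KCNE4 was at 9.74, 25.9 and 15.2 FPKM in HEN, against 4.23, 4.82 and 2.11 in LEN. MARCO, a scavenger receptor of macrophages, followed at 0.26 with 53.9, 139 and 135 FPKM in HEN, against 20.7, 37.6 and 15.1 in LEN. The collagen-processing genes ADAMTS2 and LOXL2, the membrane proteoglycan gene SDC4, the RAC regulator CHN2, the kinase gene CDKL1, the endoplasmic reticulum receptor KDELR3, MMD and TMEM200A made up the 10, at distances of 0.28 to 0.33. For all 10 the groups did not overlap and HEN was higher, as the choice by likeness to GEM favours.

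The profiles nearest to RASD1 lay at larger distances than those nearest to GEM. This distance grows with the size of a gene's own differences, and RASD1 varied more than GEM. By Pearson's r the first gene of each 10 was at 0.991 with its member. The nearest was PRG4, the joint lubricant lubricin, at a distance of 0.37, with 1.12, 22.8 and 36.4 FPKM in HEN and 0.891 to 0.948 FPKM in LEN. PTGS2, the inducible prostaglandin synthase, came next at 0.50, with 8.64, 141 and 160 FPKM in HEN, against 4.25, 7.08 and 5.67 in LEN. The others, at 0.59 to 0.78, were SLC26A3, an anion exchanger, MMP11, a matrix metalloproteinase, IL8, a chemokine for granulocytes, RUNX2, a transcription factor of bone, CEMIP, a hyaluronan-degrading protein, F13A1, a clotting factor subunit of macrophages and platelets, SLC6A6, the taurine transporter, and ANGPTL4, an inhibitor of lipoprotein lipase. MMP11 was at 8.04, 337 and 166 FPKM in HEN and 5.13 to 13.4 FPKM in LEN, and IL8 at 1.08, 56.4 and 23.3 FPKM in HEN and 0.467 to 1.21 FPKM in LEN. In 6 of the 10, HEN replicate 1 lay within the LEN range or below it, as in RASD1. The distance between GEM and RASD1 themselves was 1.29, so that RASD1 ranked 4919th in likeness to GEM, and GEM ranked 129th in likeness to RASD1. Both ranks depend on how strongly each gene varied as well as on the shape of its profile. These distances rest on 6 ovaries, 2 of which stand apart, and many transcripts share that split.

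**Figure D5:**
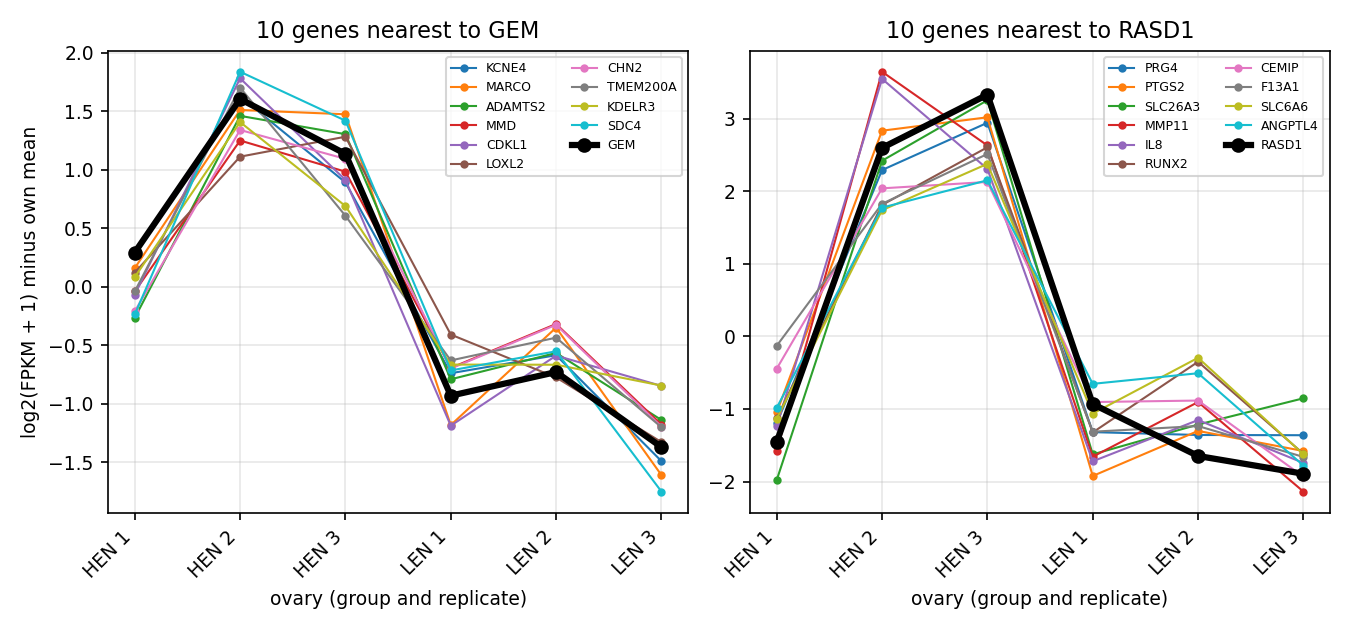
Centred log2(FPKM + 1) profiles of GEM and RASD1 (black) and of the 10 genes nearest to each over the 6 ovaries; lines only join the points of 1 gene. GEM and its nearest genes are intermediate in HEN replicate 1, whereas RASD1 and its nearest genes peak in HEN replicates 2 and 3.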

How the data were processed

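The authors deposited FPKM values for Ensembl duck transcripts of 6 ovarian libraries, as the name of the table states; per the labels' protocols, RNA was extracted with TRIzol and libraries followed standard Illumina steps. The aligner, counter, strandedness and genome build are not given in the sources used here. Of 17191 rows, 22 repeated a transcript and were used once. Symbols came from the table (11101) or through Entrez identifiers from a RefSeq table of another assembly (710). Low values of short noncoding genes were whole multiples of 1 fragment within 0.02, which gave the library totals. A length with whole fragments in all libraries (within 0.001) was found for 12814 of 12817 tested transcripts above 0 in every library. Multiples of a length also give whole fragments, so the smallest was used.

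Values were analysed as log2(FPKM + 1), which understates changes of low genes, for 13328 transcripts averaging 1 FPKM or more. Group differences were tested in limma 3.58.1 under R 4.3.3 (trend, Benjamini-Hochberg adjustment, threshold 0.05). An exact test of 3 against 3 cannot give a two-sided p below 0.1. Fits and length recovery were tested on simulated data. GEM, RASD1 and the gene lists were chosen with earlier results of these data known. Named were the 10 genes nearest to each member, and from each list 2 genes by the highest mean and, outside the marker lists, 3 by the smallest unadjusted p. Named for their role, after their values were seen, were RRAD, RASD2, ROCK1, GMIP, CACNB4, NOS1, NOS1AP, NR3C1, FKBP5, FOS, EGR1, CREM and NR4A1, besides the genes next to GEM and RASD1 and further single markers. Of CACNA1C and CSF1R, with 2 rows each, the row with the higher mean was used. Poisson intervals cover counting error only. Promoter and protein sequences were not used here, and single values of 1 listed marker are not reported here. The alternatives are other pseudocounts, filters and scalings, limma without trend or with array weights, a replicate block and leaving libraries out.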

Additional observations from a re-analysis of the deposited data

How the results depend on the processing

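GEM differed between the group means by 2.02 to 2.30 and RASD1 by 2.98 to 3.25 on the log2 scale under the other pseudocount, filters and scalings, without the trend and with the block. Array weights gave 2.21 and 4.02; the fits without trend and with array weights were added for these 2 genes after seeing the data. Leaving out 1 library gave 1.72 to 2.38 for GEM and 2.06 to 4.45 for RASD1, and leaving out HEN replicates 2 and 3 gave 1.30 and 0.036. Against 0 transcripts called, limma called 1 with a pseudocount of 0.1, 1 on TPM, 4 without the filter on low values, 7922 with array weights (2194 higher, 5728 lower), 0 to 6501 when 1 library was left out (6501 without HEN replicate 1) and 1 without HEN replicates 2 and 3. The cause was not tested. Same-numbered libraries did not deviate together (r of 0.0168, 0.382 and -0.423), and the fit with a replicate block called 0, with differences of 2.02 for GEM and 2.98 for RASD1. Ranking by Pearson correlation kept 1 of the 10 nearest genes of GEM and 1 of the 10 of RASD1. Of 16 list medians, 5 changed sign under some setting.

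The further single markers and the genes next to GEM and RASD1 were not followed through all settings. Of 85 named genes that were, 22 changed direction under some setting. The differences were 0.105 and 0.091 for YWHAE and 0.0755 and 0.0626 for NR3C1 after upper quartile and trimmed mean scaling. After quantile normalization they were 0.0823 for NR3C1, 0.247 for RASD2, 0.244 for CACNB4 and -0.243 for TSC22D3. Array weights gave -0.00874 for JUN and -0.356 for FOS. Leaving out 1 library gave -0.093 (HEN replicate 2) to 0.364 for JUN, -0.105 (HEN replicate 2) to 0.163 for TSC22D3, with -0.0286 and -0.0785 without HEN replicate 3 and LEN replicate 2, -0.19 (HEN replicate 1) to 0.258 for FOS, with -0.105 without LEN replicate 2, and -0.0712 to 1.79 for HBM and -0.219 to 0.695 for EPB42, both lowest without HEN replicate 3. Without HEN replicates 2 and 3 the differences were -0.113 for GNAI3, -0.297 for PRKAR1A, -0.297 for TSC22D3, 0.198 for FOXL2, 1.49 for STAR, -0.0631 for PECAM1, -0.771 for HBM, -0.543 for EPB42, 0.0417 for CACNB4, 0.0128 for NOS1, 0.0279 for NOS1AP, -0.428 for FKBP5, -0.748 for SLC26A3, -0.00944 for MMP11, -0.0287 for RUNX2, -0.138 for SLC6A6 and -0.00321 for ANGPTL4. Some single markers outside the 85 changed direction too. Without HEN replicates 2 and 3, CYP17A1 differed by 0.685 against -4.48 with all ovaries, NR5A2 by -0.189 against 0.849 and INHBA by -0.143 against 0.469. Summing rows per symbol did not apply to GEM and RASD1, which have 1 row each, and the planned promoter and protein comparisons were not run. Low genes rest on few fragments, and 3 ducks a group limit every comparison.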
